A study of Homo sapiens with 21 samples.

Results

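The 35 genes described here encode the machinery that copies DNA in S phase, and they were measured by RNA-seq in xenograft tumors of human lung cancer cells from mice dosed with 1 of 2 oxysterols or with vehicle. They were chosen by gene symbol for their roles in origin licensing, helicase activation, fork synthesis, Okazaki fragment maturation, nucleotide supply and S-phase control, and all 35 were found among the 60651 genes of the count table. The rule uses no measured value, but the genes, and the gene lists set beside them, were chosen with earlier results of these data known. All 35 passed the filter on low counts in every comparison.

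The tumors grew from A549-Luc2 cells, a human lung adenocarcinoma line carrying a firefly luciferase gene, injected with Matrigel into female athymic nu/nu mice of 6 to 8 weeks, which lack most T cells. When the tumors had formed, mice were randomised into groups of 10 and dosed daily by oral gavage with vehicle (DMSO, ethanol, PEG400 and corn oil), with Oxy186 at 50 mg/kg or with Oxy210 at 50 mg/kg. Oxy186 and Oxy210 are synthetic oxysterol derivatives, and the study asked which pathways the compounds act on in these tumors, with WNT and Hedgehog signaling in view. There were 7 sequenced tumors each from the Control, Oxy186 and Oxy210 groups, all from the one cell line, and the labels number them r1 to r7 within a group without tying a number to a mouse. The p-values below set a difference between groups against the spread between these tumors, which are taken as independent of each other. The study set apart Oxy186 tumors r1 to r4 after viewing a principal component plot of these same libraries, so tests of that subset are not independent evidence, and values of Oxy186 r5 to r7 are given beside it.

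Total counts ran from 13787493 to 17865119 per tumor, and the 35 genes together took 0.111% to 0.237% of them. Defining transcripts of A549 cells were abundant, with a median count of 75924 for KRT8 and 96438 for ALDH1A1, and CDKN2A, which this line has deleted, was at 0 in all 21 tumors. Of 14 stromal, vessel and immune markers, 4 had a median of 0 and ADIPOQ was at 0 in every tumor, while COL1A1 reached a median count of 595 and LUM 1396. Summed over the 14 markers, the level was 130 to 240 CPM (counts scaled to library size) in Control, 115 to 244.5 in Oxy186 and 87.3 to 163 in Oxy210. The part of these transcripts in the results below was not tested. RNA from a whole tumor averages its cells, so fewer cells in S phase and less replication RNA per cell cannot be told apart.

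A cell licenses its replication origins in G1, when the origin recognition complex, CDC6 and CDT1 load the MCM helicase on DNA. At the start of S phase CDC45 and the GINS complex join the helicase, and primase, the replicative polymerases, the PCNA clamp and its loader then build the fork. Most of these genes are transcribed late in G1 under E2F transcription factors, and their RNA is commonly read as a sign of proliferation in tumors.

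Stretches of the promoters of the 35 genes are shown here. Whether they bear on how these genes rose and fell together from tumor to tumor (below) was not tested. RefSeq promoter sequences of build GRCh38.p14 were found for 32 of the 35 genes, with 42 start sites among them. The 250 bases upstream of each start were searched on both strands for 4 E2F-type 8-mers, TTTGGCGC, TTTGCCGC, TTTCGCGC and TTTCCCGC. At least 1 was present at 15 of the 42 starts (35.7%), against 979 of 35116 starts (2.79%) over all genes. The stretches below run 5′ to 3′ on the strand of the gene, lie upstream of the start site in no annotated exon, and show the 8-mers in capitals.
CDT1 (chr16:88803724-88803788, plus strand): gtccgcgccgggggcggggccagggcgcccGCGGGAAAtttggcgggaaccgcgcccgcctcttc
GINS2 (chr16:85688955-85689015, minus strand): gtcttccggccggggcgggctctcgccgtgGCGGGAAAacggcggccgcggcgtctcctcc
MCM6 (chr2:135876496-135876563, minus strand): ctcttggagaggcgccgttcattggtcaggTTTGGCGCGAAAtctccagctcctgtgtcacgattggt
PCNA (chr20:5126644-5126711, minus strand): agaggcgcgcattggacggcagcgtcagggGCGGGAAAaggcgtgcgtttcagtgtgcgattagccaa
POLA1 (chrX:24693751-24693818, plus strand): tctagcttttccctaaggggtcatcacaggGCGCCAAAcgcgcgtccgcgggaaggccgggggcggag
E2F1 (chr20:33686386-33686448, minus strand): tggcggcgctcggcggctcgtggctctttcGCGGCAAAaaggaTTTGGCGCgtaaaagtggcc

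In CDT1, GINS2 and PCNA the 8-mer is TTTCCCGC read on the opposite strand, and in POLA1 it is TTTGGCGC read on the opposite strand. The capitals of MCM6 hold 2 overlapping matches, TTTGGCGC and the reverse complement of TTTCGCGC. Each of the roles had at least 1 gene with a match: MCM3, MCM6 and MCM7 of the helicase, CDT1 of licensing, GINS2 of helicase activation, PCNA and RFC3 of the clamp and its loader, POLA1, POLA2 and POLE of the polymerases, LIG1, TYMS, and the regulators E2F1 and UHRF1. A match was found in 14 of the 32 genes (43.8%), against 3.4% of all genes, and in 18 none was found. Without a match were MCM2, ORC1, ORC6, CDC6, CDC45, GINS1, GINS3, MCM10, RFC2, RFC4, RFC5, PRIM1, POLD1, POLE2, FEN1, RRM1, RRM2 and TK1. The 20 matches lay 2 to 180 bases before the start, with a median of 50. Windows of the members were richer in G and C than windows of all genes, with medians of 68.6% and 58%. A match describes letters in these windows and not binding.

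Levels were set side by side as CPM per kilobase of each gene's canonical transcript. PCNA, the sliding clamp that holds polymerases on DNA, had the highest level of the 35 in all 21 tumors, running from 103 to 222 with a median of 144. MCM7, a helicase subunit, followed with a median of 57.0 (38.1 to 96.1), and TK1, the thymidine kinase of nucleotide salvage, with 52.6 (23.2 to 95.5). The ranges of MCM7 and TK1 overlap almost wholly, whereas that of PCNA lies above both. Below them stood MCM4 (median 28.2), MCM3 (27.9), RRM1 (26.4), RRM2 (24.9), RFC4 (23.7) and FEN1 (23.5), neighbours that did not separate beyond their spread.

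The 6 MCM subunits form 1 ring but their RNA differed in level. MCM7 was the highest of the 6 and MCM2, at 2.77 to 9.78 with a median of 4.90, the lowest in all 21 tumors. The lowest of the 35 was POLA2, the accessory subunit of the polymerase alpha-primase complex, with a median of 1.42 (0.288 to 2.48), again in all 21 tumors. Its partner POLA1, the catalytic subunit, had a median of 4.46. Between these ends lay the DNA ligase LIG1 (13.6), the leading-strand polymerase POLE (11.4), the lagging-strand polymerase POLD1 (10.2), the licensing factor CDC6 (9.49), thymidylate synthase TYMS (8.45), CDC45 (7.80), the transcription factor E2F1 (5.71) and the origin complex subunit ORC1 (3.70). Lengths taken over all annotated exons gave a like order, with a Spearman rho of 0.873 over the 35 genes.

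**Figure D1:**
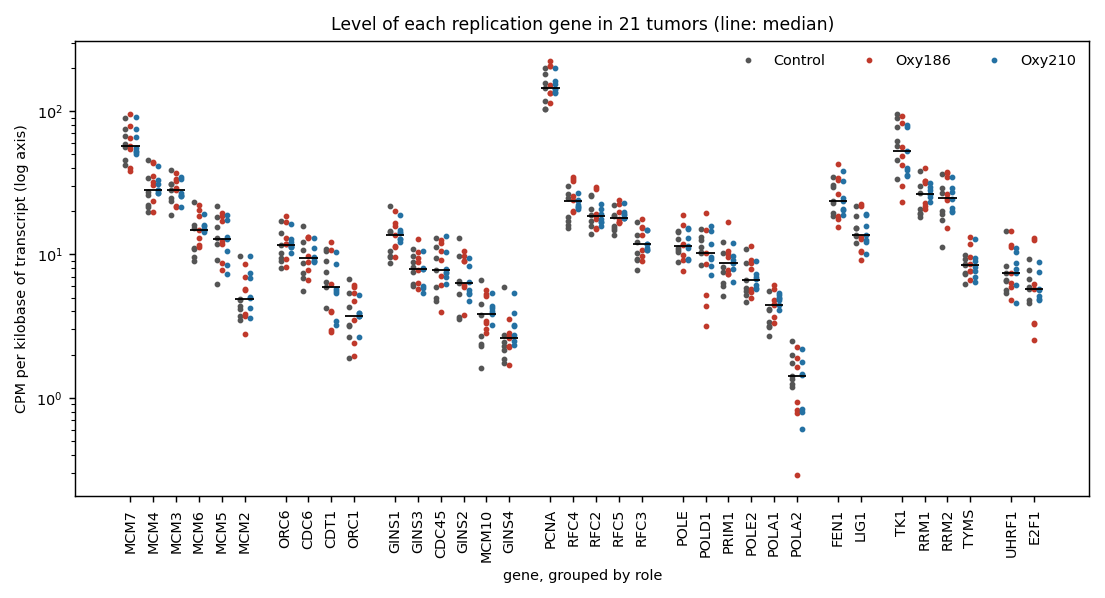
Level of each of the 35 genes (vertical axis) in CPM per kilobase of canonical transcript on a log axis, one point per tumor coloured by group. PCNA stands highest and POLA2 lowest in all 21 tumors, and within each gene the points of the 3 groups overlap.

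The 35 genes moved as a set from tumor to tumor, and this spread was larger within the groups than the distance between them. Each gene's log2 CPM was centred on its mean over the 21 tumors, and the 35 centred values were averaged in each tumor. In Control the average ran from -0.55 in r2 to 0.60 in r6, with an SD of 0.38. Oxy186 ran from -0.50 in r1 to 0.51 in r7 (SD 0.36) and Oxy210 from -0.21 in r5 to 0.48 in r2 (SD 0.25). The group means were -0.043, 0.025 and 0.019. High and low tumors thus occurred in every group: in Control r6, Oxy186 r7 and Oxy210 r2 all 35 genes were above their own mean, and in Control r2 and Oxy186 r1 only 1 was.

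**Figure D2:**
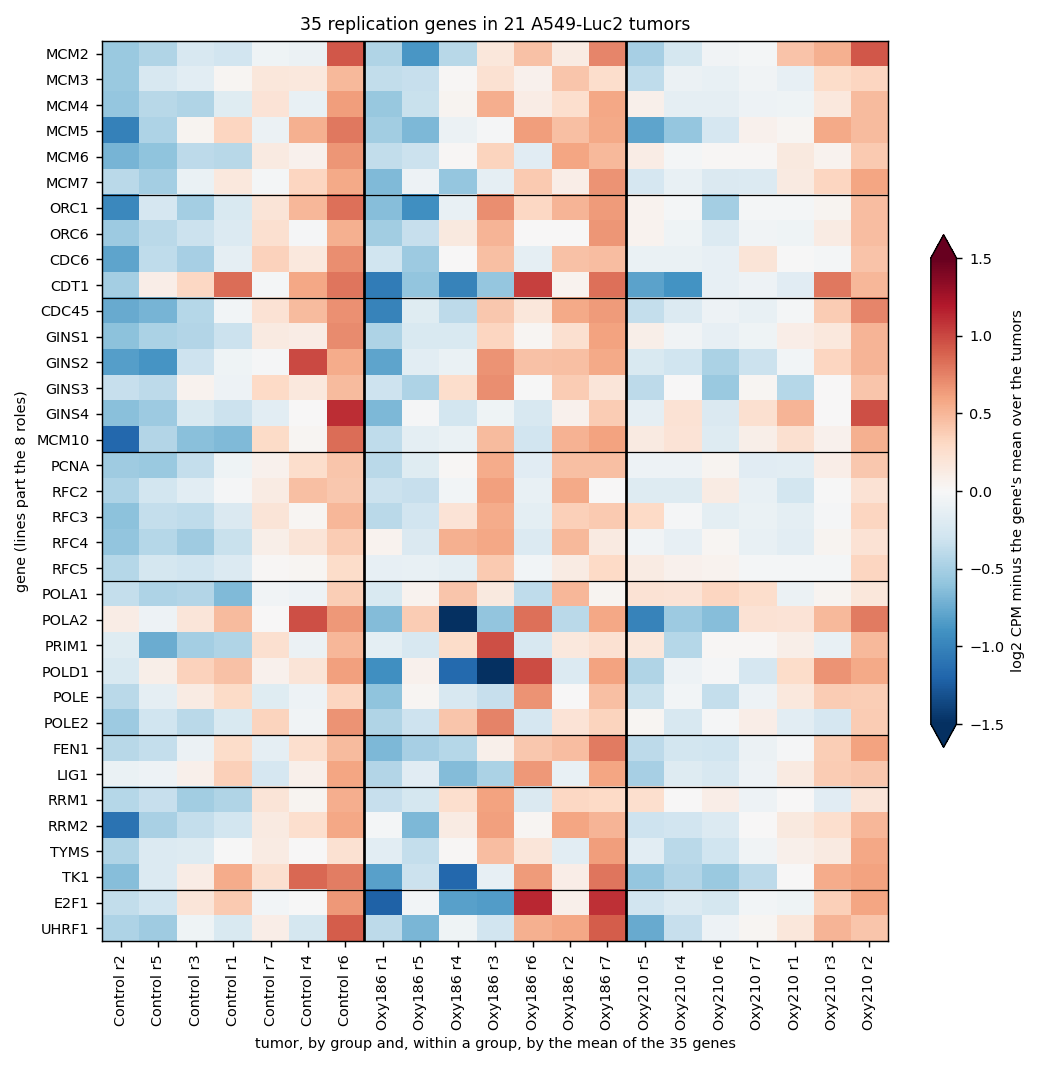
Log2 CPM of the 35 genes (rows, ordered by role) in the 21 tumors (columns, by group), each gene centred on its mean over the tumors. Control r6, Oxy186 r7 and Oxy210 r2 are above the mean in all 35 rows, and POLD1, POLA2 and LIG1 are below their mean in Oxy186 r1 to r4, whereas CDT1, E2F1 and TK1 are below it in r1, r3 and r4 and slightly above it in r2.

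Over the 595 pairs of genes, the median Pearson r across the 21 tumors was 0.67, and 69.8% of pairs exceeded 0.5, against a median of -0.0026 and 14.2% over pairs of all 13608 genes whose log2 CPM averaged 1 or more. The median was 0.69 for deviations from the group means and 0.63 when libraries were scaled by total count alone. CDC45, which the helicase needs to unwind DNA, followed the average of the other 34 most closely, at r = 0.96. The least tied were POLA1 (0.34), POLD1 (0.39) and POLA2 (0.43). These correlations are descriptions over 21 tumors in which the points share a library, its depth and its base composition.

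Co-variation differed by role. Median r between members was 0.84 in the clamp and clamp loader, 0.80 in Okazaki fragment maturation (the single pair FEN1 and LIG1), 0.79 in the MCM helicase, 0.74 in helicase activation, 0.70 for the 2 regulators, 0.67 in licensing and 0.58 in nucleotide supply. Primase and the polymerases had a median of -0.07. Within that role PRIM1, the primase subunit that lays the RNA primer, and POLE2 had r = 0.87, and POLD1 and POLE had 0.82, whereas POLA1 and POLD1 had -0.30. The lowest of all 595 pairs was POLA1 with POLA2, 2 subunits of 1 complex, at -0.39.

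Base composition moved with these values. The trend of each library's log2 CPM on the GC content of exons, here called the GC slope, differed between tumors, from -0.51 to -0.18 in Oxy186 r1 to r4, from 0.079 to 0.49 in Oxy186 r5 to r7, from -0.15 to 0.40 in Control and from -0.33 to 0.26 in Oxy210. Across the 21 tumors POLD1 had r = 0.89 with the slope, LIG1 0.84, POLA2 0.82, CDT1 0.78, E2F1 0.76 and POLE 0.75, while POLA1 had -0.62, RFC4 -0.58, RRM1 -0.56 and PRIM1 -0.54. The average of the 35 genes had 0.21 over the 21 tumors, and -0.22 within Control, 0.36 within Oxy186 and 0.75 within Oxy210, each over 7 tumors. With the GC trend of each library removed, the median r over the 595 pairs was 0.75 and pairs below 0 went from 33 to 2. The median among primase and polymerases was then 0.51, that among nucleotide genes 0.80, and POLA1 with POLD1 reached 0.73, while POLA2 kept an r of only 0.22 with the other members.

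The average of the 35 genes ran beside that of 32 mitosis and G2/M genes, which share none of the members, with r = 0.95 (Spearman's rho 0.95) over the 21 tumors. Without the 2 tumors farthest from the median it was 0.92, and within Control, Oxy186 and Oxy210 it was 0.98, 0.91 and 0.99, each over 7 tumors. Against 16 hypoxia genes r was -0.84 (rho -0.84), or -0.81 without the 2 farthest tumors, and -0.98, -0.78 and -0.79 within the groups. Tumors high in replication RNA were thus high in mitosis RNA and low in hypoxia RNA in each of the groups. For MKI67, the antigen scored in pathology as a proliferation index, r was 0.92. No p is given for these values, and the lists were chosen with earlier results of these data known.

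**Figure D3:**
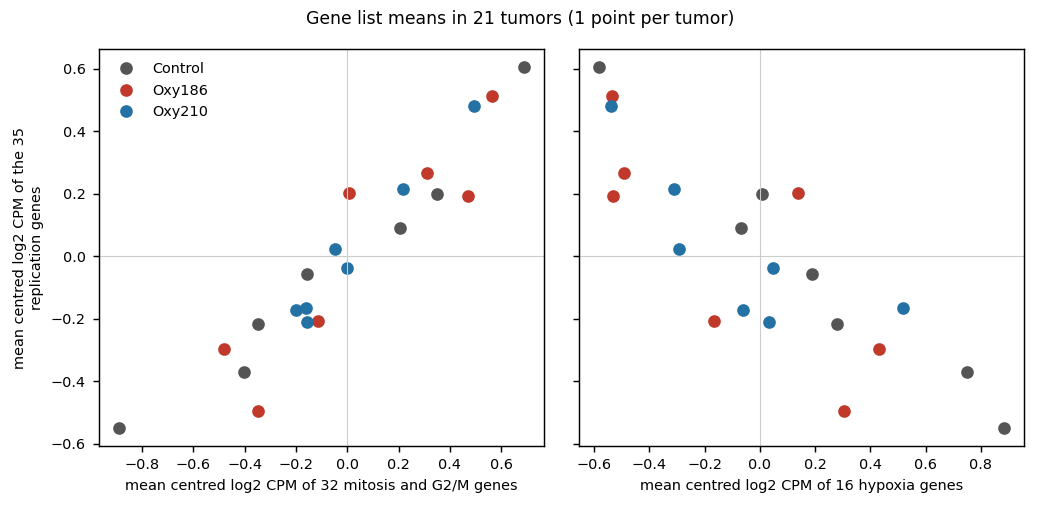
Mean centred log2 CPM of the 35 genes (vertical axis) against that of 32 mitosis genes and of 16 hypoxia genes (horizontal axes), one point per tumor coloured by group. The mean of the 35 genes rises along the mitosis axis and falls along the hypoxia axis in the Control, Oxy186 and Oxy210 tumors alike.

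The first question of the design is whether either compound changed these genes. None of the 35 differed between Oxy186 and Control with edgeR's quasi-likelihood test and Benjamini-Hochberg adjustment over 16291 genes, of which 0% passed. At an unadjusted p under 0.05, 0 of 35 members passed (3.79% of all genes did), and limma-voom and DESeq2 called 0 members after adjustment. Of the 35 log2 fold changes 27 were above 0, with a median of 0.12 against -0.0067 over all genes tested. Since the 35 move together, they are not 35 separate observations.

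The smallest p belonged to RFC4, a subunit of the clamp loader. Its log2 CPM had lowest, median and highest values of 4.39, 4.66 and 5.37 in Control and of 4.77, 5.12 and 5.56 in Oxy186. The Oxy186 values sat toward the upper end of the Control range and overlapped it. The log2 fold change was 0.34 ± 0.19 (SE, n = 7 against 7) with a 95% interval of -0.05 to 0.73 and an adjusted p of 0.862 (edgeR). For POLA1 the values were 3.91, 4.22 and 4.94 in Control and 4.20, 4.63 and 5.08 in Oxy186, with a log2 fold change of 0.30 (-0.08 to 0.67; edgeR adjusted p 0.862). The 2 groups overlapped here too. Furthest below 0 stood POLA2 (-0.43), the licensing factor CDT1 (-0.35), POLD1 (-0.32) and TK1 (-0.31), none past the test.

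Oxy210 against Control gave a like account. None of the 35 passed the adjusted edgeR test, as 0% of 16396 genes did. Limma-voom and DESeq2 also called 0 members, where they called 0 and 92 of all genes. One member, POLA1, had an unadjusted p under 0.05, where 13.8% of all genes did. Its log2 CPM was 4.49 at the lowest, 4.78 at the median and 4.90 at the highest in Oxy210, within the upper part of the Control range given above. The log2 fold change was 0.40 ± 0.14 (SE, n = 7 against 7; 0.09 to 0.70), with an edgeR adjusted p of 0.291. RFC5, another clamp loader subunit, was the member that varied least over the tumors (SD 0.21). For it Control ran 4.85, 5.06 and 5.55, Oxy186 5.12, 5.23 and 5.66, and Oxy210 5.24, 5.32 and 5.59. All 3 groups overlapped, and Oxy210 differed from Control by 0.20 (-0.04 to 0.44; edgeR adjusted p 0.419). In this comparison 23 of the 35 were above 0 and 12 below, with a median of 0.08 against 0.0086 over all genes.

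Control r6, in which all 35 genes were above their mean, weighed on both comparisons, which share the 7 Control tumors. Without it the median log2 fold change of the members was 0.274 for Oxy186 and 0.21 for Oxy210, and the members with an unadjusted p under 0.05 numbered 3 and 9, where 5.12% and 18.0% of all genes had one. The adjusted calls were still 0 in both. Leaving out the tumors with all 35 genes high in the treated groups moved the medians the other way, to 0.0182 without Oxy186 r7 and to -0.0184 without Oxy210 r2.

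The 2 compounds, oxysterol analogs given at 1 dose, were also compared with each other. None of the 35 differed after adjustment with edgeR, limma-voom or DESeq2, and none had an unadjusted p under 0.05 with edgeR. Over 16361 genes the edgeR shares were 0% and 4.06%, while limma-voom called 0 genes and DESeq2 14 after adjustment. GINS4, a subunit of the GINS complex, had log2 CPM of 2.71, 3.32 and 3.76 in Oxy186, of 3.17, 3.60 and 4.34 in Oxy210 and of 2.76, 3.15 and 4.49 in Control. These ranges overlapped, and the difference, Oxy186 minus Oxy210, was -0.38 ± 0.20 (SE, n = 7 against 7; -0.79 to 0.04; edgeR adjusted p 1.00). For RFC4, which ran 4.83, 4.93 and 5.21 in Oxy210, the difference was 0.23 (-0.07 to 0.54). The median over the 35 was 0.06.

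The intervals show what these comparisons could and could not see. For all 35 members the 95% interval lay inside a 2-fold change in either direction in Oxy210 against Control and in Oxy186 against Oxy210, and for 33 of the 35 in Oxy186 against Control. The median distance from the estimate to either bound was 0.36, 0.40 and 0.47 on the log2 scale in that order. It ran from 0.24 for the best measured member to 0.79 for the least across these comparisons, so the size of change that could be told from 0 differed between members. A missed threshold does not show equal levels.

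**Figure D4:**
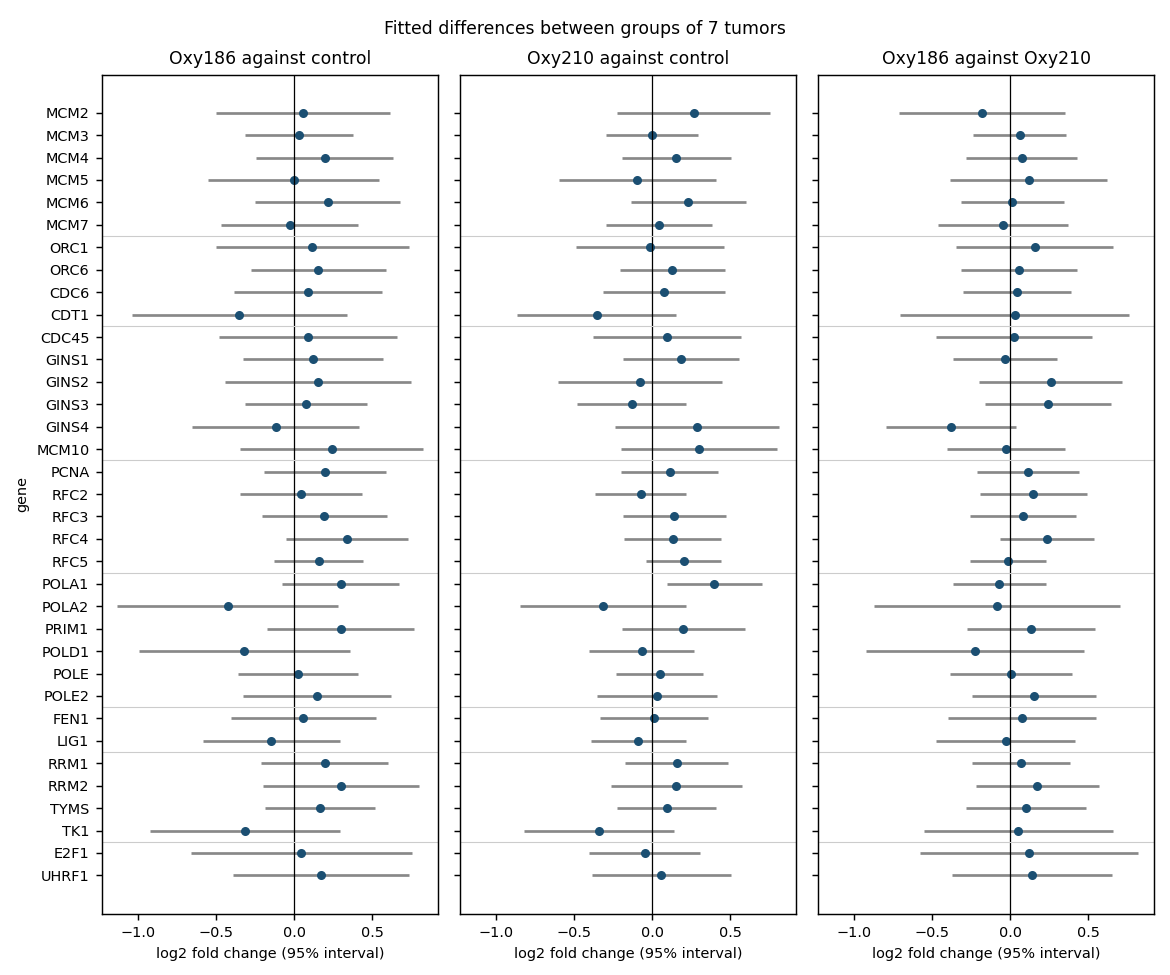
Log2 fold change of each of the 35 genes with its 95% interval (edgeR) in the comparisons of 7 tumors with 7, genes ordered by role. Intervals cover 0 except for POLA1 in Oxy210 against Control.

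Values by group are given for the member with the highest mean log2 CPM in each role, a scale not divided by transcript length. MCM7 ran 6.71, 7.19 and 7.78 (lowest, median and highest log2 CPM) in Control. In Oxy186 it ran 6.55, 7.14 and 7.89, and in Oxy210 6.96, 7.10 and 7.80. PCNA ran 7.03, 7.52 and 8.00 in Control, 7.18, 7.61 and 8.15 in Oxy186 and 7.41, 7.52 and 7.99 in Oxy210. In both the medians of the groups lay within 0.1 of each other, well inside the range of any one group.

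CDC6, which loads the helicase with CDT1, ran 4.67, 5.33 and 6.17 in Control. In Oxy186 it ran 4.92, 5.47 and 5.93, and in Oxy210 5.34, 5.44 and 5.89. GINS1 ran 4.85, 5.14 and 6.17 in Control, 5.00, 5.49 and 6.06 in Oxy186 and 5.34, 5.56 and 5.97 in Oxy210. For both genes the lowest Oxy210 tumor was above the lowest of the other groups, and the highest tumor of all was a Control.

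The flap endonuclease FEN1, which trims Okazaki fragments, ran 5.24, 5.57 and 6.13 in Control. In Oxy186 it ran 4.98, 5.73 and 6.43, and in Oxy210 5.26, 5.57 and 6.26. RRM1, the large subunit of ribonucleotide reductase, ran 5.85, 6.03 and 6.92 in Control, 6.03, 6.62 and 6.97 in Oxy186 and 6.20, 6.38 and 6.62 in Oxy210. UHRF1, which carries DNA methylation through replication, ran 4.40, 4.70 and 5.83 in Control. In Oxy186 it ran 4.25, 4.86 and 5.84, and in Oxy210 4.17, 4.96 and 5.43. No group stood apart in any of the 3.

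The remaining members are given by their log2 fold changes, Oxy186 first and Oxy210 second, each against Control and none past the test. In the helicase ring MCM2 was at 0.06 and 0.26, MCM4 at 0.20 and 0.15 and MCM6 at 0.21 and 0.23, while MCM3 and MCM5 lay within 0.1 of 0 for both compounds. Of the origin recognition complex, ORC1 was at 0.12 and -0.01 and ORC6 at 0.15 and 0.13. Among the genes that activate the helicase CDC45 was at 0.09 and 0.09, GINS2 at 0.15 and -0.08, GINS3 at 0.08 and -0.13, and MCM10, which is needed to start unwinding, at 0.24 and 0.30. The signs for GINS2 and GINS3 thus differed between the compounds, with direct differences of 0.26 (-0.20 to 0.72) and 0.24 (-0.16 to 0.64) that did not pass the edgeR test.

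Among clamp loader subunits RFC2 was at 0.04 and -0.07 and RFC3 at 0.19 and 0.14. PRIM1 was at 0.30 and 0.20, and POLE2, the accessory subunit of polymerase epsilon, at 0.15 and 0.03. In nucleotide supply RRM2, the small subunit of ribonucleotide reductase whose level rises in S phase, was at 0.30 and 0.15 and TYMS at 0.17 and 0.09, on the other side of 0 from TK1 at -0.31 and -0.34. With GC offsets TK1 was at 0.05 and -0.17.

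In the 4 Oxy186 tumors that the study set apart, 4 of the 35 genes were lower than in Control and 0 higher (edgeR's quasi-likelihood test, Benjamini-Hochberg adjusted p at or under 0.05). Over the 16852 genes tested 15.0% were lower and 4.73% higher, so the share of members called lower was not above that of all genes. With the study's added requirement of a fold above 2, POLD1 and POLA2 passed, where 8.13% of all genes were lower. At an unadjusted p under 0.05 there were 8 members, against 34.7% of all genes, with RFC4 and POLA1 among them on the higher side. With limma-voom and DESeq2 RFC4 was higher after adjustment too (0.0432 and 0.029) and E2F1 lower (0.0361 and 0.0274). Of the 35, 22 were above 0 and 13 below, with a median of 0.12 against 0.0060 over all genes.

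POLD1, the catalytic subunit of polymerase delta, had log2 CPM of 4.86, 5.27 and 5.70 in Control and of 3.47, 4.04 and 4.88 in Oxy186 r1 to r4. Only the highest of the 4 tumors reached into the Control range. The log2 fold change was -1.13 ± 0.23 (SE, n = 4 against 7; edgeR adjusted p 0.00402). In Oxy186 r5 to r7 POLD1 ran 5.14, 5.68 and 6.06, and in Oxy210 4.63, 5.06 and 5.76.

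POLA2 ran 2.12, 2.37 and 3.16 in Control, 0.21, 1.57 and 1.79 in Oxy186 r1 to r4, 2.57, 2.77 and 3.02 in r5 to r7 and 1.19, 2.39 and 2.97 in Oxy210. It was the single member whose values in r1 to r4 lay wholly below Control, as those of 8.48% of all genes did, and it varied most over the 21 tumors (SD 0.72). The fold change was -1.21 ± 0.30 (SE, n = 4 against 7; edgeR adjusted p 0.0124). These are low counts, 16 to 47 reads in r1 to r4 against 63 to 126 in Control, and 16.8% of the exon bases of POLA2 are shared with another gene of the same strand.

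CDT1 had 3.50, 4.33 and 4.86 in Control, 2.96, 3.22 and 4.07 in r1 to r4 and 3.42, 4.85 and 5.04 in r5 to r7. LIG1, which seals Okazaki fragments, had 5.25, 5.58 and 6.09 in Control, 4.85, 5.04 and 5.38 in r1 to r4 and 5.32, 6.08 and 6.15 in r5 to r7. Both overlapped Control in part, and fell by 0.96 ± 0.27 and 0.54 ± 0.17 (log2 fold change, SE; edgeR adjusted p 0.0241 and 0.0341). The call on CDT1 was lost without Oxy186 r1, r3 or r4 (edgeR adjusted p 0.0697, 0.0654 and 0.0939), and that on LIG1 without any of these (0.0707, 0.0949 and 0.145) or without Control r1 or r3 (0.0635 and 0.0536). Just outside the threshold stood E2F1 (-0.74, edgeR adjusted p 0.0505), RFC4 (0.55, 0.0536) and TK1 (-0.75, 0.0751). E2F1 had 3.63, 3.997 and 4.65 in Control, 2.78, 3.17 and 4.07 in r1 to r4 and 3.96, 5.09 and 5.13 in r5 to r7. It was called lower without Control r2, r5 or r7 or without Oxy186 r2 (edgeR adjusted p 0.0404, 0.0478, 0.0496 and 0.00669). RFC4 had 5.03, 5.50 and 5.56 in r1 to r4 and 4.77, 4.78 and 5.12 in r5 to r7. It was called higher without Control r4, r6 or r7 or without Oxy186 r1 (edgeR adjusted p 0.042, 0.018, 0.0447 and 0.0372). POLA1 (0.44) was called higher without Control r6 alone (edgeR adjusted p 0.0316).

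In the MCM helicase, helicase activation, the clamp and its loader, nucleotide supply and the regulators no member passed the adjusted edgeR test in r1 to r4. MCM7 had 6.55, 6.86 and 7.31 in r1 to r4 and 7.14, 7.61 and 7.89 in r5 to r7. These medians lay on either side of the Control median of 7.19. Among the polymerases POLE, also not called, ran 6.12, 6.44 and 6.84 in Control and 5.92, 6.23 and 6.52 in r1 to r4. In r5 to r7 it ran 6.54, 6.97 and 7.20, and in Oxy210 6.16, 6.48 and 6.90. Tumors r1 to r4 and r5 to r7 were not compared by a test, having been separated on these data.

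The order of the fold changes in r1 to r4 followed the GC content of exons. The 4 members over 60% GC, POLD1 (64.8%), CDT1 (64.3%), TK1 (62.1%) and E2F1 (61.6%), were all below 0, and the 11 under 45% were all above 0. Over the 35 members r between log2 fold change and GC was -0.76, and over 16819 genes with a GC value it was -0.71. The median fold change of all genes went from 0.28 in the lowest of 10 equal bins of GC to -1.08 in the highest.

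When each library's own GC trend entered the fit as an offset, 1 of the 35 was called lower, POLA2 at -1.22 (edgeR adjusted p 0.0315), and 0 higher, while 2.26% of all genes were lower and 1.79% higher. POLD1 was then at -0.02, CDT1 at 0.16, LIG1 at -0.18, E2F1 at 0.10 and TK1 at 0.15. Across the 35, r with GC was 0.06, 29 were above 0 and the median was 0.13. POLA2 has an exon GC of 48.8%, near the median of the members (48.9%) and of all genes (47.6%). That value covers all its annotated exons, 12006 bases, against 3544 in its canonical transcript, and may differ from the GC of the RNA counted. Across the tumors POLA2 had r = 0.82 with the GC slope, beside 0.89 for POLD1. The offset used this exon GC, and how far it took the trend out of POLA2 was not tested. Whether GC trends of this kind come from the libraries or from the tumors was not tested.

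**Figure D5:**
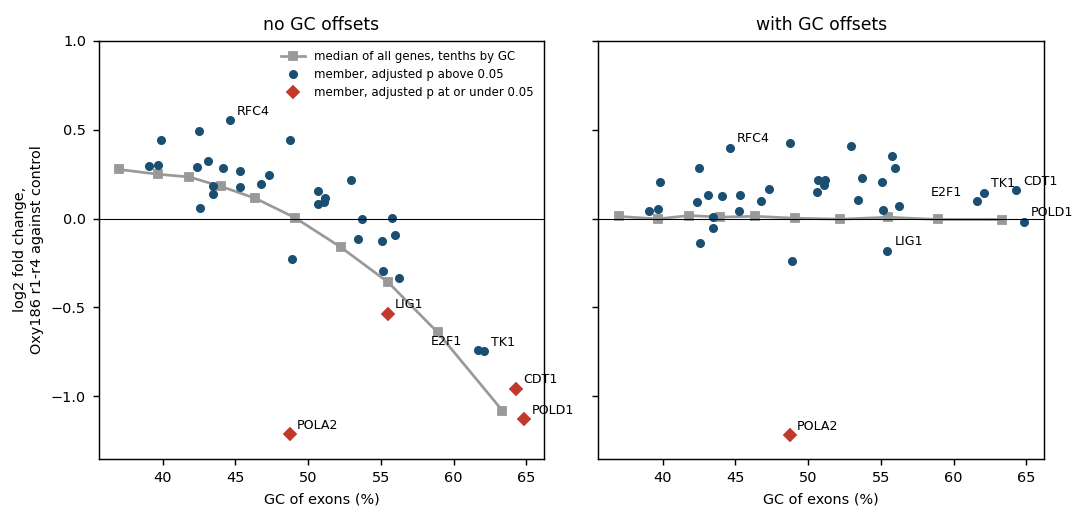
Log2 fold change in Oxy186 r1 to r4 against Control (vertical axis) against the GC content of exons (horizontal axis) for the 35 genes, without GC offsets on the left and with them on the right; squares give the median of all genes in 10 bins of GC. On the left the members of high GC lie low, down to POLD1 at -1.13, and POLA2 at -1.21 lies far below the line at its GC; on the right POLA2 at -1.22 is the lowest member.

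Of 55 other replication genes, among them further polymerase, origin and checkpoint subunits, 54 could be tested, RNASEH2A having a median count of 1. In r1 to r4 against Control 3 of the 54 were lower and 0 higher with edgeR, a smaller share than the 15.0% and 4.73% of all genes. An unadjusted p under 0.05 was found for 11 of the 54, where 34.7% of all genes had one. POLD4, the smallest subunit of polymerase delta, had 3.88, 5.12 and 5.42 in Control, 2.37, 3.00 and 3.37 in r1 to r4 and 4.65, 5.24 and 5.26 in r5 to r7, so that r1 to r4 lay wholly below Control. Its log2 fold change was -1.99 ± 0.30 (SE, n = 4 against 7; edgeR adjusted p 0.000863), and -1.43 with GC offsets (edgeR adjusted p 0.00303). Of its exon bases 21.3% are shared with another gene of the same strand. CHTF18, of an alternative clamp loader, ran 4.07, 4.61 and 5.03 in Control, 2.96, 2.99 and 3.77 in r1 to r4 and 4.96, 5.06 and 5.82 in r5 to r7. The helicase RECQL4 ran 4.73, 5.50 and 5.93 in Control, 3.17, 3.71 and 4.57 in r1 to r4 and 5.34, 5.85 and 6.24 in r5 to r7. Neither overlapped Control in r1 to r4. Their log2 fold changes were -1.37 and -1.49 (edgeR adjusted p 0.00109 and 0.00245), and with GC offsets -0.01 and -0.30. Of all genes 8.48% lay wholly below Control in r1 to r4. POLD4, CHTF18 and RECQL4 were named because they were called in this comparison, so their separation is not independent evidence. In the comparisons of 7 tumors with 7 none of the 54 was called. An unadjusted p under 0.05 was found for 1, 2 and 2 in Oxy186 against Control, Oxy210 against Control and Oxy186 against Oxy210. Over all genes the shares were 3.79%, 13.8% and 4.06% in that order.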

How the data were processed

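RNA from 21 A549-Luc2 xenograft tumors was sequenced. Per the labels and methods, the authors trimmed reads with Trimmomatic 0.39, aligned them with STAR 2.7.6a to a combined human (GRCh38.p13, GENCODE 37) and mouse (GRCm39) genome, and counted uniquely mapped human reads per gene with featureCounts (Subread 2.0.1); the strand setting is not given in the sources used here, so genes that overlap on opposite strands cannot be told apart (47.9% of the exon bases of TYMS, 23.6% of MCM2 and 23.4% of GINS4). The raw counts deposited by the authors were used for all tests. The authors also deposited log2 CPM values for Control and Oxy186 r1 to r4; the largest difference from recomputed values over 16852 genes was 0 after rounding.

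Genes were filtered with filterByExpr, scaled by TMM and tested with edgeR 4.0.16 (quasi-likelihood, R 4.3.3) on the groups compared, with Benjamini-Hochberg adjustment over all genes tested. The fits were tested on simulated data with changes of known size. Log2 CPM used a prior count of 2. Gene coordinates, lengths, GC and overlaps came from GENCODE 44 (GRCh38). GC offsets, which take each library's trend of log2 CPM on exon GC out of the fit, were splines with 4 degrees of freedom fitted per library on genes averaging a log2 CPM of 1 or more. Alternatives were limma-voom (limma 3.58.1), DESeq2 1.42.0, other scalings and filters, a fit of all 21 tumors, GC offsets, a replicate block and leaving out each tumor. GC offsets that keep each library's mean were added after seeing the data.

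The members and lists were chosen with earlier results of these data known. Per-tumor values are given for the member of highest mean log2 CPM (not per length) in each role, the 2 members of smallest p in each comparison and those of largest and smallest SD, and for called genes of the other replication list, up to 3 per direction; E2F1, TK1, CDT1 and LIG1 were added because their calls lay at the threshold. No 2 libraries agreed within sampling noise (smallest chi-square per degree of freedom 10.9).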

Additional observations from a re-analysis of the deposited data

Results flagged for a closer look

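In 105 sets of 7 tumors, one for each of the 35 genes in each group, the highest and lowest tumor were compared with the rest by Dixon's ratio, and 4 sets held a tumor apart from the others, where chance gives about 1 in 20, or 5.25. MCM2 had a log2 CPM of 5.075 in Control r6, with the other Control tumors between 3.596 and 4.085. GINS4 had 4.492 in Control r6, with the others between 2.756 and 3.386. MCM6 had 6.174 in Oxy210 r2, with the others between 5.752 and 5.925, and RFC5 had 5.595 there, with the others between 5.236 and 5.387. These are 2 of the 3 tumors in which all 35 genes were above their mean.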

How the results depend on the processing

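In the comparisons of 7 tumors with 7, the count of members past the adjusted threshold was 0 under every alternative run, including each tumor left out. In Oxy186 r1 to r4 against Control it was 4, and 7 without a filter on low counts, 1 with GC offsets, 1 with GC offsets that keep each library's mean, 2 with a replicate block (POLD1 and, higher, RFC4, with POLA2 at an edgeR adjusted p of 0.0506) and 0 with the block and GC offsets together. Leaving out 1 tumor gave 2 to 6, the 2 without Oxy186 r3 or without r4, when POLD1 and POLA2 were called. LIG1 was also lost in the fit of all 21 tumors (edgeR adjusted p 0.054). Replicate numbers did not pair the tumors: same-numbered tumors had r over 0.1 in 0, 4 and 1 of 7 pairs, and 0 of 7 correlated best with their own number. With leave-one-out the median fold change of the members ran 0.0182 to 0.274 (Oxy186), -0.0184 to 0.21 (Oxy210), -0.0445 to 0.136 (Oxy186 against Oxy210) and -0.0395 to 0.24 (r1 to r4). In r1 to r4 that median, 0.118, was 0.021 with GC offsets that keep the mean, 0.254 with the block and 0.273 with block and GC offsets. In Oxy186 against Control, at 0.116, it was 0.0733 with offsets that keep the mean. In Oxy210 it was 0.0774, and 0.129 with library size scaling. In Oxy186 against Oxy210, at 0.06, it fell to between 0.00671 and 0.033 with library size scaling, limma-voom, offsets that keep the mean, and the block with and without GC offsets. All genes called in r1 to r4, 3323, numbered 683 with GC offsets, 838 with offsets that keep the mean, 68 with block and GC offsets, 4385 with DESeq2 and 1835 to 3957 with 1 tumor left out.

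Of 56 named log2 fold changes, these crossed 0 under an alternative fitted on the full set of tumors, to at most 0.246 in size and with no adjusted p under 0.569; the cause was not tested. With GC offsets, MCM7 (0.129) and POLD1 (0.0289) in Oxy186 against Control, POLD1 (0.174) in Oxy210, and MCM7 (0.0729), GINS1 (-0.136), POLE (0.0462) and FEN1 (0.107) in r1 to r4. With offsets that keep the mean, MCM7 (0.06) and CDC6 (-0.0378) in Oxy186, POLD1 (0.163) in Oxy210, CDC6 (-0.0142) and POLE (-0.0135) in Oxy186 against Oxy210, and GINS1 (-0.246), CDC6 (-0.101) and RFC5 (-0.0724) in r1 to r4. With the replicate block, POLE (-0.0128) and FEN1 (-0.00397) in Oxy186, POLE (-0.033) in Oxy186 against Oxy210 and GINS4 (0.053) in r1 to r4. With block and GC offsets, MCM7 (0.149) and POLD1 (0.0417) in Oxy186, POLD1 (0.207) in Oxy210, CDC6 (-0.011) in Oxy186 against Oxy210, and MCM7 (0.205), POLE (0.15), FEN1 (0.151), GINS4 (0.0734) and POLD1 (0.227) in r1 to r4. With limma-voom, POLE (-0.0162) and FEN1 (-0.0066) in Oxy186, and CDC6 (-0.000898) and POLE (-0.0306) in Oxy186 against Oxy210, where CDC6 (-0.0189) and POLE (-0.0451) with library size scaling, POLE (-0.00652) with at least 10 counts per library and RFC5 (0.00679) without a filter also crossed. In the fit of all 21 tumors, FEN1 (-0.00733) in Oxy210.

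With 1 tumor left out, 23 of the 56 crossed 0, none of them called on the other side; the cause was not tested. Their leave-one-out ranges in Oxy186 against Control were -0.0826 to 0.127 for POLE, -0.177 to 0.0993 for MCM7, -0.22 to 0.217 for GINS4 and -0.0945 to 0.17 for FEN1. In Oxy210 against Control they were -0.0662 to 0.152 for MCM7, -0.0316 to 0.239 for CDC6, -0.0222 to 0.107 for POLE, -0.114 to 0.0998 for FEN1, -0.0293 to 0.286 for UHRF1 and -0.169 to 0.00635 for POLD1. In Oxy186 against Oxy210 they were -0.181 to 0.0582 for MCM7, -0.13 to 0.0462 for GINS1, -0.0201 to 0.134 for CDC6, -0.0104 to 0.137 for RRM1, -0.0588 to 0.0307 for RFC5, -0.299 to 0.0901 for POLA2, -0.128 to 0.082 for POLE, -0.0681 to 0.195 for FEN1 and -0.0224 to 0.247 for UHRF1. In r1 to r4 they were -0.247 to 0.232 for UHRF1, -0.0626 to 0.24 for GINS1, -0.333 to 0.0801 for GINS4 and -0.347 to 0.0427 for FEN1.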

Other observations

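Outside the members, the genes whose log2 CPM ran closest to the average of the 35 over the 21 tumors were HJURP (r = 0.96), KIF2C (0.95), TIMELESS (0.94), SPAG5 (0.94), CDCA3 (0.93), SHCBP1 (0.93), CENPA (0.92), AURKA (0.92), MKI67 (0.92) and TICRR (0.92), out of 13573 genes. With the GC trend of each library removed the same genes had r of 0.88 to 0.97, and their ranks ran from 2 for SPAG5 to 100 for SHCBP1, with HJURP at 56. HJURP and CENPA act at the centromere, KIF2C, SPAG5 and AURKA in the spindle, and TIMELESS and TICRR at replication forks and origins.

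Promoter windows of the mitosis genes held other letters. The E2F-type 8-mers were in 10.3% of their start windows, against 35.7% of the 42 windows of the members, 19.0% for the other replication genes and 0 of 19 for the hypoxia genes. CCAAT was in 75.9% of mitosis windows, 61.9% of replication windows and 32% of all windows. TTTGAA, the core of the cell cycle homology region of G2/M promoters, was in 51.7% of mitosis windows, 2.38% of replication windows and 13.3% of all. The windows differ in GC content, and these shares were not tested.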
